A study of Mus musculus with 4 samples.

Results

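The tumour necrosis factor (TNF) superfamily was described in cultured mouse cardiac fibroblasts that overexpressed the nuclear receptor Nr4a3. Its members were taken by gene symbol alone, as the genes named Tnf, Lta, Ltb, Ltbr, Fas, Fasl, Cd40, Cd40lg, Cd27, Cd70, Ngfr and Edar and every gene with a numbered Tnfsf or Tnfrsf symbol. The rule found 43 of the 55359 genes listed, 17 ligands and 26 receptors, and used no measured value. The cells were primary fibroblasts from the hearts of wild-type mice aged P1 to P3, with overexpression of Nr4a3 (OENr4a3) or with a control overexpression (OECtrl), and 2 libraries were sequenced for each. The study asked how Nr4a3 acts on the direct reprogramming of fibroblasts into cardiomyocyte-like cells. The sample titles give day 10 and the design text gives reprogramming day 7, and the labels name neither the vector nor any reprogramming factors in these cells. Ages and days are the same in both groups. No label ties the libraries of a group to separate cultures, and the p-values therefore cover only the spread between libraries, which could be technical.

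Ligands of the superfamily are mostly membrane proteins that assemble as trimers and can be shed by proteases. Receptors with a death domain recruit adaptors such as TRADD and FADD and can start caspase activation. Receptors without one bind TRAF adaptors and pass the signal to NF-kappaB and MAP kinases, while decoy receptors bind ligand without signalling. In fibroblasts TNF itself is known for inducing cytokines, chemokines and metalloproteinases.

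Of the 43 genes, 28 passed the filter on low counts and were tested. Of these 28 genes, 6 were higher and 4 lower in OENr4a3 at an adjusted p under 0.05, or 35.7% (edgeR's quasi-likelihood test, Benjamini-Hochberg over 15029 genes). Among all 15029 genes tested, 23.0% were called, 12.0% as higher and 11.0% as lower, against 21.4% and 14.3% of the 28. The called genes were Tnfrsf11b, Tnfsf18, Tnfrsf19, Tnfrsf1b, Tnfsf4 and Cd40, which were higher, and Tnfrsf12a, Tnfrsf26, Fas and Tnfrsf23, which were lower. In 12 genes (42.9%) both OENr4a3 libraries lay above both OECtrl libraries, as they did in 34.0% of all genes tested. In 7 genes (25%) both lay below, as in 34.2% of all genes tested, and in the other 9 the groups overlapped. The median log2 fold change was 0.12 over the 28 genes and -0.0066 over all genes tested. The 10 calls became 4 without OENr4a3 replicate 1 and 4 without OENr4a3 replicate 2. The calls over all genes became 1313 and 1229 without these libraries and 7773 without OECtrl replicate 1, against 3457 with all 4 libraries.

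**Figure D1:**
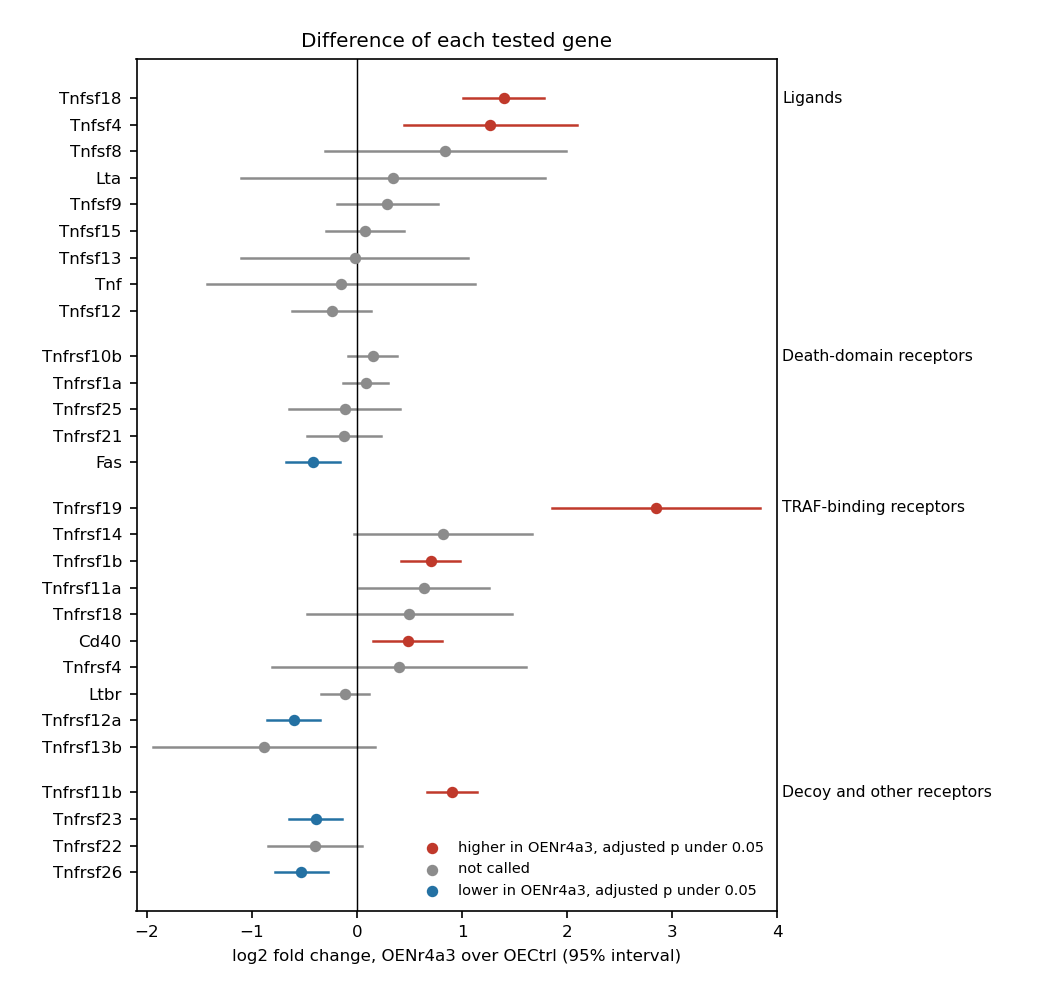
Fitted log2 fold change of each of the 28 tested genes, OENr4a3 over OECtrl, with its 95% interval (bars), grouped by role. Tnfrsf19 lies farthest right at 2.85, and the 4 genes called lower lie between -0.60 and -0.39.

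The libraries held 18441428 and 18287644 reads in OENr4a3 and 14275501 and 16461333 in OECtrl. Nr4a3 had 3184 and 3196 reads in the OENr4a3 libraries, against 36 and 31 in OECtrl, an 81.7-fold difference, as the labels say. All 10 cardiac fibroblast markers had reads, with a summed level of 18000 to 19300 CPM (reads scaled to library size) in every library. Of these, Col1a1, Pdgfra and Ddr2 were higher in OENr4a3 and Lum, Thy1 and Tcf21 were lower. Markers of other cells were present in these bulk cultures. The 14 macrophage markers summed to 694.9 and 671.9 CPM in OENr4a3, against 1052 and 1031 CPM in OECtrl, and 9 of them were lower. Most of this was Lyz2, and the other 13 summed to 164.2 and 157.8 CPM in OENr4a3, against 245.8 and 216.3 CPM in OECtrl. The 10 mesothelial and epicardial markers summed to 527.3 and 491.7 CPM in OENr4a3, against 1089 and 1148 CPM in OECtrl, with 7 lower. The 8 pericyte and smooth muscle markers summed to 1010 and 1067 CPM in OENr4a3, against 770.2 and 618.5 CPM in OECtrl, with 4 higher and 2 lower. Most of this was Pdgfrb, and the other 7 summed to 162.2 and 157.4 CPM in OENr4a3, against 114.2 and 99.9 CPM in OECtrl. The 10 endothelial markers summed to 166.3 and 169.6 CPM in OENr4a3, against 126 and 119.8 CPM in OECtrl, with 1 higher and 2 lower. The higher one was Flt1, and the other 9 summed to 51.6 and 58.4 CPM in OENr4a3, against 62.97 and 65.5 CPM in OECtrl. The 8 Schwann cell markers summed to 17.1 and 17.9 CPM in OENr4a3 against 30.8 and 31.2 CPM in OECtrl, with Sox10 and Foxd3 at 0 and Mbp called lower. Without Mbp the other 7 summed to 7.77 and 8.74 CPM in OENr4a3, against 8.17 and 8.26 CPM in OECtrl. The 8 cardiomyocyte markers summed to 14.1 and 7.01 CPM in OENr4a3 against 6.09 and 5.03 CPM in OECtrl, with Myh6 called higher. The 11 lymphocyte markers summed to 0.501 to 1.10 CPM in OENr4a3 and 0.415 to 0.778 CPM in OECtrl, with Cd3d, Cd3g and Nkg7 at 0. The share of tested markers called was 60% for fibroblast, 64.3% for macrophage, 70% for mesothelial and 85.7% for pericyte markers. It was 33.3% each for endothelial, Schwann cell and cardiomyocyte markers, against 23.0% of all genes tested. The part of these cells in the differences below was not tested, and in bulk samples fewer cells of a type and less RNA per cell cannot be told apart. The log2 fold change also followed exonic length across the 15029 genes (Spearman's rho 0.42, across genes, which are not independent replicates). The 28 tested family genes had a median exonic length of 2472.5 bases, against 4126 for all genes tested.

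Receptor transcripts far outweighed ligand transcripts. In RPKM, reads scaled to exonic length and library size, which allows levels of different genes to be compared, the 26 receptors summed to 368.4 and 372.3 in OENr4a3, against 350.4 and 377.4 in OECtrl. The 17 ligands summed to 29.5 and 29.1 RPKM in OENr4a3, against 23.7 and 26.8 RPKM in OECtrl. The same 4 genes, Tnfrsf11b, Tnfrsf1a, Tnfrsf12a and Ltbr, held 73.99% and 74.1% of the receptor RPKM in the OENr4a3 libraries and 71.6% and 74.8% in the OECtrl libraries. Their order differed between the groups. In OENr4a3 Tnfrsf11b was first with 88.3 RPKM, followed by Tnfrsf1a with 72.3, Tnfrsf12a with 64.3 and Ltbr with 49.4, and the libraries of neighbours in this order did not overlap. In OECtrl Tnfrsf12a was first with 97.7 RPKM, followed by Tnfrsf1a with 68.3, Ltbr with 53.4 and Tnfrsf11b with 47.1, and Ltbr and Tnfrsf11b overlapped between libraries. The most abundant ligand in both groups was Tnfsf12, with 11.4 RPKM in OENr4a3 and 13.4 in OECtrl. Tnfsf18 was the next ligand in OENr4a3, at 6.94 RPKM against 2.62 in OECtrl.

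**Figure D2:**
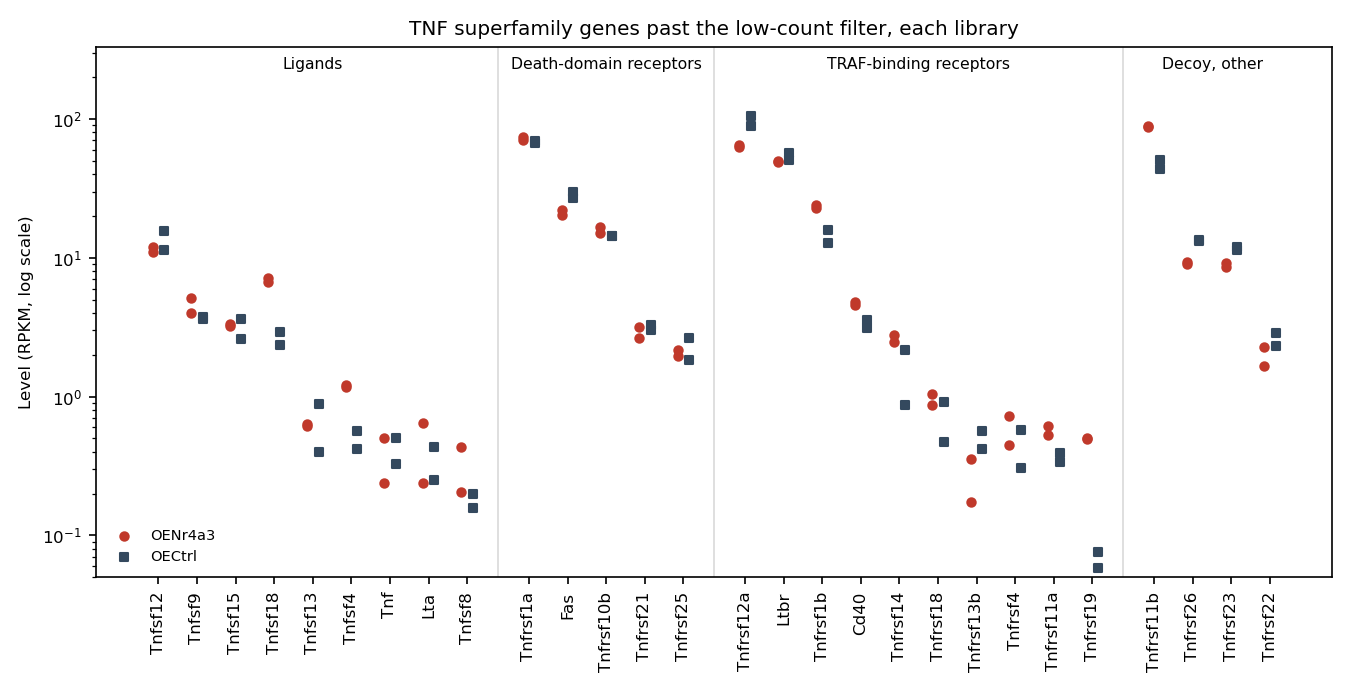
Level of each tested gene in each library in RPKM on a log scale, OENr4a3 as circles and OECtrl as squares, grouped by role and ordered by the level in OECtrl. Tnfrsf19 shows the widest gap between groups, with 0.4999 and 0.4932 RPKM in OENr4a3 and 0.0584 and 0.0758 RPKM in OECtrl.

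Among the ligands, 2 of 9 tested genes were higher in OENr4a3 and 0 were lower (22.2% called, against 23.0% of all genes tested). At an unadjusted p under 0.05, which at least 23.0% of all genes tested passed, 2 were higher and 0 lower. DESeq2 and limma-voom called 0 as lower. The median log2 fold change of the 9 was 0.29. Tnfsf18, which encodes GITR ligand, a costimulator of T cells, had 269 and 249 reads in OENr4a3 and 70 and 100 in OECtrl. This came to 14.8 and 13.9 CPM in OENr4a3, against 4.84 and 5.98 CPM in OECtrl, without overlap (log2 fold change 1.40, 95% interval 1.01 to 1.79, adjusted p = 0.00112). Tnfsf4, which encodes OX40 ligand, also a costimulator of T cells, had 39 and 40 reads in OENr4a3 and 15 and 13 in OECtrl. It stood at 2.15 and 2.23 CPM in OENr4a3, against 1.04 and 0.778 CPM in OECtrl, also without overlap (log2 fold change 1.27, interval 0.445 to 2.10, adjusted p = 0.0362). Tnfsf4 lost its call with DESeq2 (adjusted p = 0.11), without the low-count filter (0.0537), and without OENr4a3 replicate 1 (0.157), OENr4a3 replicate 2 (0.184) or OECtrl replicate 2 (0.0879).

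The other 7 tested ligands did not pass. Tnf, the founding member, had 15 and 7 reads in OENr4a3, against 12 and 9 in OECtrl (log2 fold change -0.15, interval -1.43 to 1.12, adjusted p = 0.866). Lta, which encodes lymphotoxin alpha, had 6 and 16 reads in OENr4a3, against 5 and 10 in OECtrl (0.34, interval -1.11 to 1.79, adjusted p = 0.726). In both the groups overlapped, and the intervals reach past 1 log2 unit either way, so a 2-fold difference was not detectable at this depth. Tnfsf12, which encodes TWEAK, stood at 18.01 and 16.6 CPM in OENr4a3, against 17.2 and 23.6 CPM in OECtrl (-0.24, adjusted p = 0.319). The groups overlapped, and without OECtrl replicate 1 it stood at -0.45. Tnfsf15, which encodes the ligand of death receptor 3, stood at 19.3 and 18.8 CPM in OENr4a3, against 20.97 and 15.3 CPM in OECtrl (0.077, adjusted p = 0.764). Tnfsf13, which encodes APRIL, stood at 1.05 and 1.001 CPM in OENr4a3, against 1.45 and 0.658 CPM in OECtrl (-0.020, adjusted p = 0.981). For both, the OENr4a3 libraries lay between the OECtrl libraries. Tnfsf9 and Tnfsf8, the ligands of Tnfrsf9 and Tnfrsf8, lay above in both OENr4a3 libraries, as did 34.0% of all genes tested, but missed the threshold. Tnfsf9 stood at 5.12 and 6.57 CPM in OENr4a3, against 4.71 and 4.85 CPM in OECtrl (0.29, adjusted p = 0.343). Tnfsf8 had 30 and 14 reads in OENr4a3, against 11 and 10 in OECtrl (0.84, adjusted p = 0.254). It stood at 0.20 without OENr4a3 replicate 1 and 1.28 without OENr4a3 replicate 2.

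Among the receptors with a death domain, 1 of 5 tested genes was lower in OENr4a3 and 0 were higher. That was 20% called, against 23.0% of all genes tested, and the median log2 fold change was -0.12. At an unadjusted p under 0.05, which at least 23.0% of all genes tested passed, these counts were the same. DESeq2 and limma-voom also called 0 as higher. Fas, the receptor of Fas ligand, stood at 42.1 and 45.7 CPM in OENr4a3, against 55.6 and 61.7 CPM in OECtrl, without overlap (log2 fold change -0.42, interval -0.67 to -0.16, adjusted p = 0.0291). Fas was not called without OENr4a3 replicate 1 (adjusted p = 0.356), without OENr4a3 replicate 2 (0.203), without the low-count filter (0.0743), and with the trend with exonic length removed (-0.19, adjusted p = 0.172). Tnfrsf1a, the main TNF receptor of most cells, stood at 183.9 and 190.9 CPM in OENr4a3, against 174.0 and 179.9 CPM in OECtrl (0.083, interval -0.13 to 0.30, adjusted p = 0.552). Tnfrsf10b, the mouse death receptor for TRAIL, stood at 90.9 and 82.7 CPM in OENr4a3, against 78.3 and 78.1 CPM in OECtrl (0.15, interval -0.084 to 0.38, adjusted p = 0.316). Both lay higher in each OENr4a3 library than in either OECtrl library, as did 34.0% of all genes tested, by less than the test could call. Tnfrsf21, death receptor 6, stood at 12.9 and 10.9 CPM in OENr4a3, against 13.6 and 12.3 CPM in OECtrl (-0.12, adjusted p = 0.606). Tnfrsf25, the receptor of Tnfsf15, stood at 4.90 and 4.45 CPM in OENr4a3, against 6.02 and 4.19 CPM in OECtrl (-0.12, adjusted p = 0.746). In both the groups overlapped.

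Among the TRAF-binding receptors without a death domain, 3 of 10 tested genes were higher in OENr4a3 and 1 was lower. That was 40% called, against 23.0% of all genes tested, and the median log2 fold change was 0.49. Tnfrsf19, which encodes the receptor TROY, had the largest fitted change of the 28 genes. It had 43 and 42 reads in OENr4a3, against 4 and 6 in OECtrl, or 2.37 and 2.34 CPM in OENr4a3 against 0.277 and 0.359 CPM in OECtrl. The difference was 7.20-fold (log2 fold change 2.85, interval 1.86 to 3.84, adjusted p = 0.00372), on a gene that remained scarce in both groups. Tnfrsf1b, the second TNF receptor, had 1575 and 1655 reads in OENr4a3 and 879 and 821 in OECtrl. It stood at 86.8 and 92.1 CPM in OENr4a3, against 60.8 and 49.1 CPM in OECtrl (0.70, interval 0.42 to 0.98, adjusted p = 0.00649). Macrophages also express Tnfrsf1b, and the macrophage markers summed lower in both OENr4a3 libraries. The part of macrophages in the Tnfrsf1b difference was not tested. Cd40, the receptor of CD40 ligand, stood at 16.4 and 15.6 CPM in OENr4a3, against 12.2 and 10.7 CPM in OECtrl (0.48, interval 0.15 to 0.81, adjusted p = 0.0419). The Cd40 call was lost in 6 of 12 other fits, among them those without OENr4a3 replicate 1 (adjusted p = 0.288), OENr4a3 replicate 2 (0.202) or OECtrl replicate 2 (0.0702), and DESeq2 gave 0.108.

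The receptor that was lower was Tnfrsf12a, which encodes Fn14, the receptor of TWEAK and a gene known to respond to growth factors. It had 2219 and 2268 reads in OENr4a3, against 2500 and 3421 in OECtrl. Its level was 122.2 and 126.2 CPM in OENr4a3, against 173.0 and 204.7 CPM in OECtrl, without overlap (log2 fold change -0.60, interval -0.85 to -0.36, adjusted p = 0.00746). Tnfrsf12a was not called without OENr4a3 replicate 1 (adjusted p = 0.093) or OENr4a3 replicate 2 (0.0643). With the trend with exonic length removed the difference was -0.36 (adjusted p = 0.0109).

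The other 6 tested receptors of this group were not called. Ltbr, the lymphotoxin beta receptor, stood at 116.2 and 116.3 CPM in OENr4a3, against 118.7 and 132.8 CPM in OECtrl (-0.11, interval -0.35 to 0.12, adjusted p = 0.444). Without OECtrl replicate 1 it stood at -0.19. Tnfrsf14, the herpesvirus entry mediator, stood at 3.58 and 4.01 CPM in OENr4a3, against 3.11 and 1.26 CPM in OECtrl (0.82, adjusted p = 0.138). Its OECtrl libraries stood far apart, and the log2 fold change was 1.59 without OECtrl replicate 1 and 0.28 without OECtrl replicate 2. Tnfrsf11a, which encodes RANK, stood at 3.14 and 3.67 CPM in OENr4a3, against 2.35 and 2.03 CPM in OECtrl (0.64, adjusted p = 0.118). The remaining 3 genes had fewer reads. Tnfrsf18, the receptor of Tnfsf18, had 29 and 24 reads in OENr4a3, against 20 and 12 in OECtrl (0.50, adjusted p = 0.426). Tnfrsf4, the receptor of Tnfsf4, had 18 and 11 reads in OENr4a3, against 6 and 13 in OECtrl (0.40, adjusted p = 0.616). Tnfrsf13b, a receptor of B cells that binds BAFF and APRIL, had 9 and 18 reads in OENr4a3, against 23 and 20 in OECtrl (-0.88, interval -1.94 to 0.17, adjusted p = 0.195). Tnfrsf18 and Tnfrsf4 overlapped between groups, and the other 4 did not. Of all genes tested, 34.0% lay above and 34.2% lay below in both OENr4a3 libraries, likewise without overlap.

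Of the 4 decoy and other receptors, 1 was higher and 2 were lower in OENr4a3 (75% called, against 23.0% of all genes tested). Tnfrsf11b encodes osteoprotegerin, a secreted decoy receptor that binds RANK ligand and TRAIL. It had 4554 and 4431 reads in OENr4a3, against 1775 and 2384 in OECtrl. The level was 250.8 and 246.5 CPM in OENr4a3, against 122.8 and 142.6 CPM in OECtrl, a 1.87-fold difference (log2 fold change 0.91, interval 0.67 to 1.15, adjusted p = 0.00091). It had the smallest p of the 28 genes. Tnfrsf22 and Tnfrsf23 encode mouse decoy receptors for TRAIL, and Tnfrsf26 is a related gene beside them. Tnfrsf26 stood at 30.0 and 29.2 CPM in OENr4a3, against 42.6 and 42.9 CPM in OECtrl (-0.53, interval -0.78 to -0.28, adjusted p = 0.0122). Tnfrsf23 stood at 34.0 and 36.6 CPM in OENr4a3, against 47.5 and 45.2 CPM in OECtrl (-0.39, interval -0.64 to -0.14, adjusted p = 0.0341). Neither overlapped between groups, and 34.2% of all genes tested likewise lay below in both OENr4a3 libraries. Tnfrsf22 stood at 9.53 and 6.95 CPM in OENr4a3, against 12.1 and 9.75 CPM in OECtrl, also without overlap but without a call (-0.40, adjusted p = 0.166). It stood at -0.55 without OECtrl replicate 2, and leaving out 1 library at a time gave -0.65 to -0.20. Without OENr4a3 replicate 1 or replicate 2 the adjusted p was 0.132 and 0.176 for Tnfrsf26 and 0.392 and 0.246 for Tnfrsf23, so both calls were lost. Tnfrsf23 was also not called with DESeq2 (adjusted p = 0.0572) or without the low-count filter (0.0809). Summed over the 4 genes, the level was 109.2 and 107.4 RPKM in OENr4a3, against 71.7 and 77.7 RPKM in OECtrl, most of it from Tnfrsf11b.

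**Figure D3:**
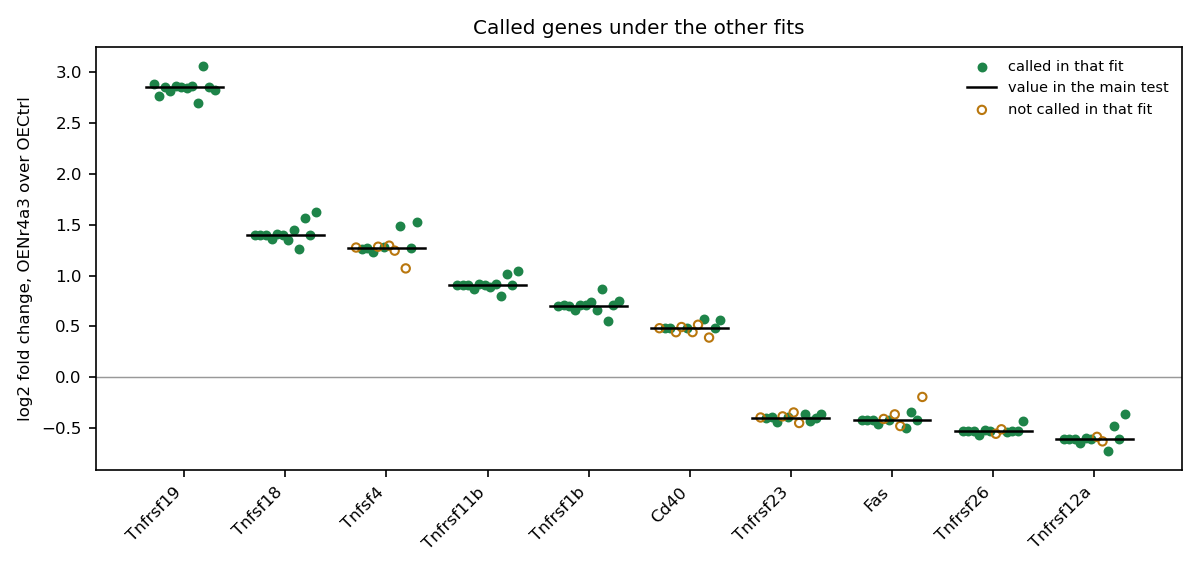
Log2 fold change of the 10 called genes, OENr4a3 over OECtrl, in the main test (line) and in 12 other fits (filled where called, open where not). Tnfrsf19, Tnfsf18, Tnfrsf11b and Tnfrsf1b were called in all 12, and the other 6 lost the call in at least 1.

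Across 12 other fits per gene, described with the processing, the calls of Tnfrsf11b, Tnfsf18, Tnfrsf19 and Tnfrsf1b held in each. Their log2 fold changes ranged from 0.80 to 1.04 for Tnfrsf11b, 1.26 to 1.63 for Tnfsf18, 2.69 to 3.05 for Tnfrsf19 and 0.56 to 0.86 for Tnfrsf1b. The other 6 called genes kept their direction in all 12 fits, but their groups did not overlap, so leaving out 1 library could hardly reverse them. The genes called lower, and Tnfsf4 and Cd40 of those called higher, lost the call when either OENr4a3 library was left out. In those fits the spread came from the OECtrl pair alone, and the cause of the losses was not tested.

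Ligands and their receptors were unequally represented. For TNF the ligand stood at 0.371 RPKM in OENr4a3 and 0.418 in OECtrl, whereas Tnfrsf1a stood at 72.3 in OENr4a3 and 68.3 in OECtrl and Tnfrsf1b at 23.4 in OENr4a3 and 14.4 in OECtrl. The ligand was far scarcer than either receptor in both groups. For TWEAK both sides were present, with Tnfsf12 at 11.4 RPKM in OENr4a3 and 13.4 in OECtrl and its receptor Tnfrsf12a at 64.3 in OENr4a3 and 97.7 in OECtrl. For GITR the balance was the other way, with the ligand Tnfsf18 at 6.94 RPKM in OENr4a3 and 2.62 in OECtrl and the receptor Tnfrsf18 at 0.962 in OENr4a3 and 0.690 in OECtrl. Osteoprotegerin was the most abundant member in OENr4a3, but its ligands were scarce. Tnfsf11, which encodes RANK ligand, had 0 reads in OENr4a3 and 2 in OECtrl, and Tnfsf10, which encodes TRAIL, had 5 in OENr4a3 and 2 in OECtrl. Fas had 1586 reads in OENr4a3 and 1835 in OECtrl, and its ligand Fasl had 0 in OENr4a3 and 2 in OECtrl.

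**Figure D4:**
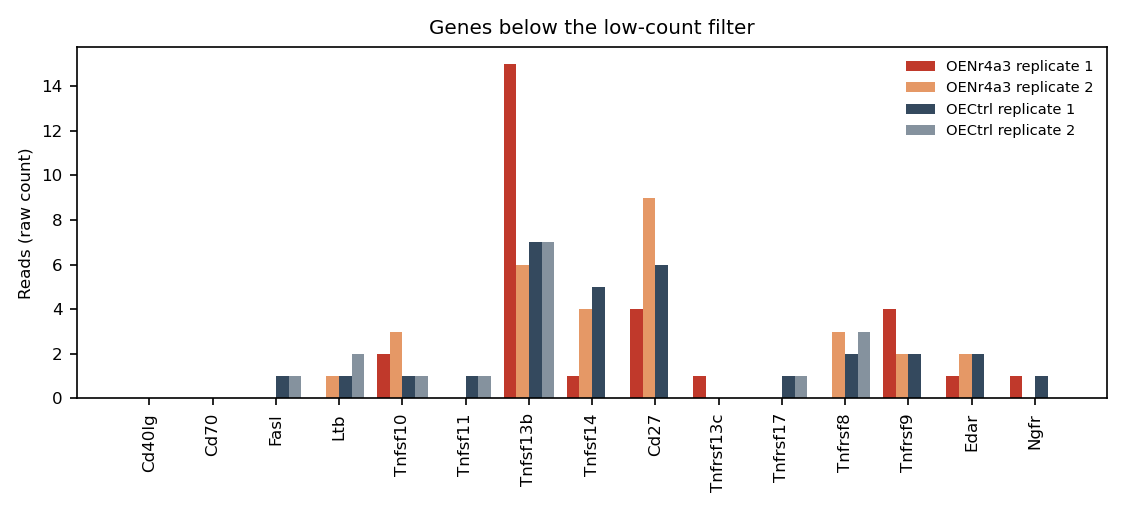
Reads of the 15 genes below the low-count filter in each library, OENr4a3 to the left of OECtrl for each gene. The highest bar is Tnfsf13b with 15 reads in OENr4a3 replicate 1, and Cd40lg and Cd70 have 0 in all 4 libraries.

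The 15 genes below the filter, 8 ligands and 7 receptors, held 59 reads in OENr4a3 and 46 in OECtrl in all. Cd40lg and Cd70, ligands of activated lymphocytes and other immune cells, had 0 reads in every library. Over the 2 libraries of a group, a count of 0 allows 3 reads, or up to 0.083 CPM in OENr4a3 and 0.0963 CPM in OECtrl, which covers counting error only. Tnfsf13b, which encodes BAFF, had 15 and 6 reads in OENr4a3, against 7 and 7 in OECtrl, a ratio of CPM of 1.29 (95% exact counting interval 0.628 to 2.75). Cd27, a receptor of T and B cells, had 4 and 9 reads in OENr4a3, against 6 and 0 in OECtrl (ratio 1.87, interval 0.663 to 5.997). Tnfsf14, which encodes LIGHT, had 1 and 4 reads in OENr4a3, against 5 and 0 in OECtrl. Groups overlapped in all 3 genes. Tnfsf10 had 2 and 3 reads in OENr4a3, against 1 and 1 in OECtrl (ratio 2.16, interval 0.353 to 22.7). Tnfrsf9 had 4 and 2 in OENr4a3, against 2 and 0 in OECtrl (ratio 2.59, interval 0.463 to 26.2), and Tnfrsf8 had 0 and 3 in OENr4a3, against 2 and 3 in OECtrl (ratio 0.518, interval 0.0804 to 2.66). All these intervals include equal levels. The other 7 genes, Fasl, Ltb, Tnfsf11, Tnfrsf13c, Tnfrsf17, Edar and Ngfr, had at most 3 reads in a group, so no ratio is given.

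On the genome (GRCm38, GENCODE M21), 23 of the 43 genes lay within 500 kb of another member, in 9 groups. Tnfsf4 (chromosome 1, 161395409 to 161418410, plus strand) and Tnfsf18 (161494655 to 161505290, plus strand) are neighbours, and both were higher in OENr4a3, while Fasl beside them was below the filter. Tnfrsf26, Tnfrsf22 and Tnfrsf23 lie within 78.2 kb of chromosome 7 (143607659 to 143685872), and their fitted changes were -0.53, -0.40 and -0.39. In the other groups of neighbours no called gene lay beside another called gene. Of the 50-base words of Tnfrsf22, 27.4% also occur in another gene, as do 19.3% of those of Tnfrsf23, in part in each other. For Tnfrsf26 this is 1.89%, with neither of these genes. How reads from shared words were counted is not known, so the counts of Tnfrsf22 and Tnfrsf23 are uncertain. In Tnfsf12 and Tnfsf13, on chromosome 11, 46.8% and 57.3% of the words are shared, largely with the read-through gene Tnfsfm13, so how their reads were assigned is uncertain. Tnfrsf18 shares 18.7% of its words with Gm16008 and Tnfsf9 shares 11.5% with Gm11110. Of the other called genes, Cd40 shares 0.501% and Tnfrsf11b, Tnfsf18, Tnfsf4, Tnfrsf19, Tnfrsf1b, Tnfrsf12a and Fas share none. In all, 15 members overlap another gene, and reads were counted with a strand setting not given in the sources used here. No exonic bases of the 8 called genes outside the chromosome 7 group lie under an exon of another gene.

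Sequences are shown for the start regions of the genes whose calls held in every fit and, of the genes called lower, the one with the smallest p. Each is the 250 bases before an annotated start (RefSeq, GRCm38.p6), written in the direction of the gene, and capitals mark a GC box (GGGCGG, or CCGCCC on the other strand) or a TATA motif (TATAAA). Both Tnfrsf19 starts are shown, since counts per gene do not tell which was used, and Tnfrsf11b is named only. Positions are chr1:161494407-161494656 (plus strand) for Tnfsf18 and chr4:145246871-145247120 (minus) for Tnfrsf1b. For Tnfrsf19 they are chr14:61046856-61047105 for the outer start and chr14:61037988-61038237 for the inner start, both minus strand. The inner window lies inside the gene, which overlaps Gm41168 on the other strand. The window of Tnfrsf12a is chr17:23677450-23677699 (minus).
Tnfsf18: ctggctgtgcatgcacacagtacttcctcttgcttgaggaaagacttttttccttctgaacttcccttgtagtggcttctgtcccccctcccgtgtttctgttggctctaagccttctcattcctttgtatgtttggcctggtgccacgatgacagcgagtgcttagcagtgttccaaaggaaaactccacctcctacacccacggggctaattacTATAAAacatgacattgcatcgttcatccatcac
Tnfrsf1b: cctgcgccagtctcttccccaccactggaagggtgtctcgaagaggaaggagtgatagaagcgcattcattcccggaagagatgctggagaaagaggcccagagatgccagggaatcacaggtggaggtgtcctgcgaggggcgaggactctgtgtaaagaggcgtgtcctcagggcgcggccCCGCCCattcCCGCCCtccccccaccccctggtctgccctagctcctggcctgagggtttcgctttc
Tnfrsf19 outer start: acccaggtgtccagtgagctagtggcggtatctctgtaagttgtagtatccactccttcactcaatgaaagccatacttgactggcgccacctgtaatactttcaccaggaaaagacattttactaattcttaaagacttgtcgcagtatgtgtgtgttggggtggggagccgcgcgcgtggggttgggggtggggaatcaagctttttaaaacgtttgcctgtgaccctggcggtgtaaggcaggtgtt
Tnfrsf19 inner start: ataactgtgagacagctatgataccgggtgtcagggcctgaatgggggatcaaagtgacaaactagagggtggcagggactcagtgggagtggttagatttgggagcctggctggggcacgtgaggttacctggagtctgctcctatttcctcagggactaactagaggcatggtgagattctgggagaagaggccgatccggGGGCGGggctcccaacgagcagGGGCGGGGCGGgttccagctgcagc
Tnfrsf12a: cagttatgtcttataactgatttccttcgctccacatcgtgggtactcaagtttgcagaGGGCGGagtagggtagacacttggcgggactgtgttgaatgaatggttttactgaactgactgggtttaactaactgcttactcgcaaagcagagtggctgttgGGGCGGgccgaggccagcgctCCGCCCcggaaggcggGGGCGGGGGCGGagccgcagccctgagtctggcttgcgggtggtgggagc

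The Tnfsf18 window has a TATA motif whose first base is 34 bases before the start and no GC box. The Tnfrsf12a window has 5 GC boxes, the inner Tnfrsf19 window 3, the Tnfrsf1b window 2 and the outer Tnfrsf19 window none of the motifs searched. In all, 33 of the 43 genes had a RefSeq entry, with 37 windows, and each motif was searched on both strands. The called genes Tnfrsf11b, Tnfsf4, Cd40 and Tnfrsf26 had no entry, so their start regions were not searched for any motif. The NR4A response element (AAAGGTCA) occurred in 0 of the 37 windows and in 1.34% of 32851 windows of all genes. Its shorter core AGGTCA, which lies within it, occurred in 2 windows (5.41%), of Tnfrsf13b and Tnfrsf25, against 14% of all windows. A kappaB motif, the binding sequence of NF-kappaB, occurred in 4 windows (10.8%), of Ltb, Tnfrsf25, Tnfrsf8 and Tnfrsf9, against 7.25%. The AP-1 motif TGANTCA occurred in 6 (16.2%), including that of Fas, against 6.75% of all windows. The GC box occurred in 16 (43.2%) against 32.7%, and TATAAA in 6 (16.2%) against 12.4%. A match describes letters in the window and not a bound site, and no match says only that these letters are not there.

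The other genes of the pathway were read from 6 lists, which share some genes. Of the 3 family genes outside the symbol rule, 1 was called (33.3%, against 23.0% of all genes tested). Eda2r, a receptor of ectodysplasin A2, stood at 137.9 and 137.9 CPM in OENr4a3, against 103.0 and 94.9 CPM in OECtrl (log2 fold change 0.48, adjusted p = 0.0122). Eda2r was not called without OENr4a3 replicate 1 or OENr4a3 replicate 2. The list had more calls without OECtrl replicate 1 or OECtrl replicate 2, as was the case over all genes tested. Eda, which encodes ectodysplasin, was at 0.56 (adjusted p = 0.0684) and Relt, a receptor of hematopoietic tissues, at -0.996 (0.0699).

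Of 24 tested adaptors and ubiquitin enzymes of the receptor complexes, 3 were higher in OENr4a3 and 1 was lower (16.7%, against 23.0% of all genes tested), and the median log2 fold change was 0.12. Usp18, which removes the ubiquitin-like ISG15 and is best known from interferon signalling, stood at 11.5 ± 0.623 CPM in OENr4a3, against 4.14 ± 0.573 CPM in OECtrl (SD, n = 2 each; 1.47, adjusted p = 0.00125). Tnfaip3, a ubiquitin-editing enzyme that limits NF-kappaB signalling, stood at 17.3 ± 0.905 CPM in OENr4a3, against 9.85 ± 1.92 CPM in OECtrl (0.82, adjusted p = 0.0113). The third was Traf3, an adaptor that restrains noncanonical NF-kappaB signalling (0.65, adjusted p = 0.0245), which was picked out with its value known. Tradd, the adaptor of Tnfrsf1a, was lower, at 13.3 ± 0.806 CPM in OENr4a3, against 18.9 ± 1.69 CPM in OECtrl (-0.51, adjusted p = 0.0327). The list had fewer calls without OENr4a3 replicate 2 and more without OECtrl replicate 1, as was the case over all genes tested. The Tradd call was lost with DESeq2 and in 4 other fits.

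Of 16 death effectors tested, 3 were higher and 1 lower (25%, against 23.0% of all genes tested), with a median of -0.085. The higher ones were Bcl2, an inhibitor of apoptosis (28.7 ± 0.946 CPM in OENr4a3, 18.9 ± 1.76 CPM in OECtrl; 0.61, adjusted p = 0.0132), Xiap, a caspase inhibitor (121.5 ± 0.0031 CPM in OENr4a3, 91.8 ± 13.4 CPM in OECtrl; 0.41, adjusted p = 0.0383) and Cflar, an inhibitor of caspase-8 activation (0.46, adjusted p = 0.0447), the last picked out with its value known. Other inhibitors of apoptosis in the list were not called, with Bcl2l1 at -0.28 (adjusted p = 0.0725) and Mcl1 at -0.19 (adjusted p = 0.22). Bax, which permeabilises mitochondria in apoptosis, was the lower one, at 123.0 ± 2.20 CPM in OENr4a3, against 163.7 ± 24.2 CPM in OECtrl (-0.41, adjusted p = 0.0353). Calls were lost without OENr4a3 replicate 1 or replicate 2 and gained without OECtrl replicate 1, as was the case over all genes tested. There were 2 calls with the trend with exonic length removed, where Xiap stood at 0.16 and Bax at -0.12 without a call.

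Of 14 NF-kappaB subunits, inhibitors and kinases, 0 were called by edgeR's quasi-likelihood test, against 23.0% of all genes tested. DESeq2 and limma-voom also called 0. At an unadjusted p under 0.05, which at least 23.0% of all genes tested passed, 2 were higher and 0 lower. The median log2 fold change was 0.16. Without OECtrl replicate 1 or OECtrl replicate 2 the list had calls, all higher, and the calls over all genes tested rose as well. With the trend with exonic length removed 1 gene was called, as lower. Of 7 tested genes of ligand and receptor shedding, 1 was called (14.3%, against 23.0% of all genes tested). Timp1, an inhibitor of metalloproteinases, stood at 91.2 ± 2.84 CPM in OENr4a3, against 161.4 ± 23.9 CPM in OECtrl (-0.82, adjusted p = 0.00279). The sheddase genes Adam17 (0.14, adjusted p = 0.344) and Adam10 (0.040, adjusted p = 0.784) were not called. This list had more calls without OECtrl replicate 1 or OECtrl replicate 2, as was the case over all genes tested.

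Of 24 tested genes known to be induced by TNF in fibroblasts, 4 were higher in OENr4a3 and 7 were lower (45.8%, against 23.0% of all genes tested), and the median log2 fold change was 0.0013. Tnfaip2 stood at 170.3 ± 2.40 CPM in OENr4a3, against 112.8 ± 3.38 CPM in OECtrl (0.59, adjusted p = 0.00462), and Tnfaip3, above, had the next smallest p among the higher ones. Tnfaip2 was not called without OENr4a3 replicate 1 or OENr4a3 replicate 2. Mmp13, a collagenase, stood at 2.13 ± 0.524 CPM in OENr4a3, against 8.40 ± 0.455 CPM in OECtrl (-1.97, adjusted p = 0.000946). Tnfaip8 stood at 18.6 ± 0.495 CPM in OENr4a3, against 30.4 ± 2.33 CPM in OECtrl (-0.71, adjusted p = 0.00674). Cxcl1 and Mmp3 were the other higher genes and Ccl2, Ccl7, Il6, Lif and Saa3 the other lower ones, all 7 picked out with their values known. The macrophage and mesothelial marker sums were lower in OENr4a3 as well, and their part in these falls was not tested. Calls were lost without OENr4a3 replicate 1 or OENr4a3 replicate 2 and gained without OECtrl replicate 1, as was the case over all genes tested.

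**Figure D5:**
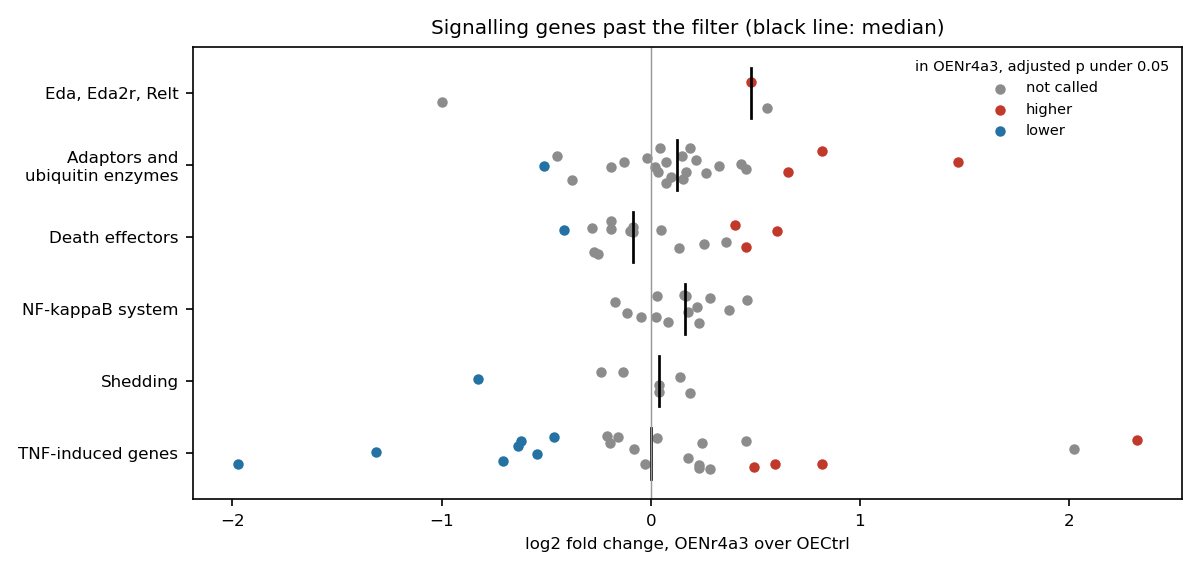
Log2 fold change, OENr4a3 over OECtrl, of each tested gene in the 6 lists (points, coloured where called) with the median of each list (black line). The medians lie between -0.085 and 0.48, and the genes of the NF-kappaB list are all uncalled.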

How the data were processed

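Ribosomal RNA-depleted, stranded paired-end libraries were made from TRIzol-extracted RNA, per the labels' protocols, whereas the molecule is labelled polyA RNA. The authors deposited whole-number counts per Ensembl gene and exonic lengths (unit other, in bases), per the file headers. The tools were SAMtools, featureCounts, Subread 1.5.1 and Trimmomatic 0.36, with build mm10, per the submitters' processing notes. These leave the aligner, the annotation and the strand setting not given in the sources used here. A further 4 per-sample columns of FPKM were not used. The deposited gene coordinates matched GENCODE M21 for only 1494 of 52083 shared identifiers, so printed positions come from GENCODE M21 by identifier.

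Groups follow the sample titles. Chi-square per degree of freedom between the replicates was 2.55 in OENr4a3 and 15.4 in OECtrl. Neither pair agreed within sampling noise, so no library was treated as a repeat deposit, and the OECtrl libraries differed more from each other. The count test used edgeR 4.0.16 in R 4.3.3 (filterByExpr, TMM, quasi-likelihood F-test, two-sided, group only), after the code was tested on simulated data. P-values were adjusted by Benjamini-Hochberg over 15029 genes and called under 0.05. CPM and RPKM use TMM-scaled library sizes and the deposited exonic length, and intervals are 95%. Ratios of scarce genes have exact binomial (Clopper-Pearson) counting intervals. Counting intervals and floors cover counting error only.

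The 12 other fits were DESeq2 1.42.0, limma-voom (limma 3.58.1), edgeR with upper-quartile factors or with DESeq2's size factors, no low-count filter, a minimum of 1 CPM in 2 libraries, each library left out, a replicate block, and removal of the trend with exonic length (lowess, span 0.3). A group left with 1 library was assumed to vary like the other.

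The family members and the gene lists were chosen with earlier results of these data known. Every family member is given, and of each pathway list the 2 called genes with the smallest p in each direction are named. Other genes of these lists, among them the uncalled Bcl2l1, Mcl1, Adam17, Adam10, Eda and Relt, were named outside this rule. Start regions were searched by exact match in RefSeq windows (GRCm38.p6), and 50-base words were compared over GENCODE M21 transcripts.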

Additional observations from a re-analysis of the deposited data

How the results depend on the processing

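Of the 10 family calls, none changed sign in 12 other fits, and 4 stayed called in all of them. The groups of these 10 genes did not overlap, so leaving out 1 library could hardly change a sign. The family count was 4 to 13 and the count over all genes 1229 to 7773 when 1 library was left out, 6 and 1878 without the low-count filter, and 5 and 911 at an adjusted p under 0.01; the cause was not tested. Libraries with the same replicate number showed no pairing (correlation of deviations -0.0776). With 2 libraries a group, this value cannot settle whether they were paired. A fit with the replicate block called 11 family genes (7 higher, 4 lower) and 3851 genes in all. The added call was Tnfrsf14 (0.87, adjusted p = 0.0345). DESeq2 called 7 family genes and 2799 in all. Upper-quartile factors gave 43.9% of calls as higher, against 52.1% in the main test.

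Of the 18 family genes not called, 8 changed sign in some fit. Leaving out 1 library at a time gave ranges of -0.52 to 0.88 for Lta, -0.79 to 0.28 for Tnf (0.17 without OECtrl replicate 1), -0.45 to 0.012 for Tnfsf12, -0.50 to 0.63 for Tnfsf13 (0.0078 without OENr4a3 replicate 2), -0.14 to 0.32 for Tnfsf15, -0.26 to 0.0012 for Tnfrsf21 and -0.36 to 0.16 for Tnfrsf25. Removing the length trend gave Tnf 0.12, Tnfsf12 0.061, Tnfsf13 0.24, Tnfsf15 -0.019, Ltbr 0.076 and Tnfrsf25 0.075. For Tnfsf13 limma-voom gave 0.087 and the replicate block 0.014.

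With 2 libraries a group, and 22 reads or fewer for Tnf and Lta in either group, modest changes of scarce genes were not detectable at this depth.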
